A study of Oryza sativa with 4 samples.

Results

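The homeobox genes of rice encode transcription factors that share a DNA-binding homeodomain, and the 55 described here were found by name in the gene table: HOX, ROC, WOX, OSH, Oskn or HOS followed by a number. Of these, 50 had a probe set of their own, out of 17905 genes with one on the array, and each gene was read by its probe set with the highest mean log2 signal. A histone H2B gene whose name reads as OSH with a number was left out. The other 5, OSH10, OSH15, HOX3, ROC9 and WOX5, had no probe set that reads them alone.

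Homeodomain proteins fall into families with different roles in the shoot. Class I KNOX proteins keep cells of the shoot apical meristem undetermined and are normally silent in leaves, while class II KNOX genes are expressed in differentiated organs. HD-Zip proteins pair a homeodomain with a leucine zipper. Class I of them is known for responses to drought and abscisic acid, class II for auxin and shade responses, class III for the upper side of leaves, vascular tissue and meristems under control of the microRNA miR166, and class IV (the ROC genes) for the epidermis. WOX proteins maintain stem cells and organ founder cells.

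The samples are leaf RNA of rice (Oryza sativa) at an age of 3 weeks, grown without stress. They come from wild type (WT) and from transgenic plants with raised expression of OsBIERF3 (OsBIERF3-OE), which encodes an ethylene-responsive transcription factor. Each genotype had 2 samples on 1 Affymetrix rice array each, and precision is limited by this small number of arrays. The promoter that drives OsBIERF3 and the number of transgenic lines are not given in the sources used here, and OsBIERF3 transcript levels were not analysed here. The labels describe the replicates as biological but not as separate plants or pools, so a p-value reflects the spread among these arrays, which may be partly technical.

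The arrays had medians of 19.7 to 20.3 signal units and summed signals of 16286703 to 16466346. Signals are the deposited linear intensities, and a log2 change is the OsBIERF3-OE mean less the WT mean. The background level of an array is its brightest signal among 33 controls that match no rice transcript, and it ranged from 25.1 to 28.0. The ratio of 3′ to 5′ signal, a sign of RNA or cRNA integrity, differed between the genotypes. The WT arrays had GAPDH ratios of 12.8 and 11.2 and the OsBIERF3-OE arrays 7.37 and 7.25. A first actin pair stood at 9.45 on each WT array and at 5.73 and 4.81 on the others. A second actin pair was higher on every array, at 39.9 and 37.7 in WT and 29.1 and 24.0 in OsBIERF3-OE. Genes of dividing tissue were far higher in OsBIERF3-OE: of 15 measured genes all 14 tested rose, and their summed signal was 481.4 to 498.0 in WT and 6279 to 6616 in OsBIERF3-OE. CYCB1-1, PCNA and MCM2 to MCM7 are among them, and over all genes tested 17.2% rose. Of 4 measured mature leaf genes, PSAG and RCA fell and RBCS and CAB2R did not pass, beside 14.5% of all genes down. The summed signals of the 4 were 38768 to 39267 in WT and 35604 to 36980 in OsBIERF3-OE. Without any 1 of the arrays only 1 of the 4 fell, and with hybridization control scaling 1 rose and 1 fell. The part of RNA ends and of tissue makeup in the homeobox results was not tested. In leaf RNA, fewer cells of a type and less RNA per cell cannot be told apart.

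The comparison asks which homeobox genes differ in level when OsBIERF3 is overexpressed. In OsBIERF3-OE leaves 5 homeobox genes rose, HOX33, HOX21, HOX2, HOX28 and ROC3. A further 7 fell, HOS58, HOS59, OSH45, HOX4, HOX1, HOX7 and HOX15. The other 25 of the 37 tested did not pass limma's Benjamini-Hochberg adjusted p of 0.05. Over all 15981 genes tested, 31.8% passed, 17.2% upward and 14.5% downward, and of all 34355 probe sets tested 24.2% passed, 12.4% upward and 11.8% downward. The homeobox shares of 32.4% in all, 13.5% upward and 18.9% downward are near the background of genes, so the number of calls is no result about the homeobox genes as a group. The median log2 change was -0.12 for homeobox genes and -0.04 for all genes. The signals of the genotypes did not overlap for 30 of the 37, or 81.1%, against 73.8% of all genes tested.

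**Figure D1:**
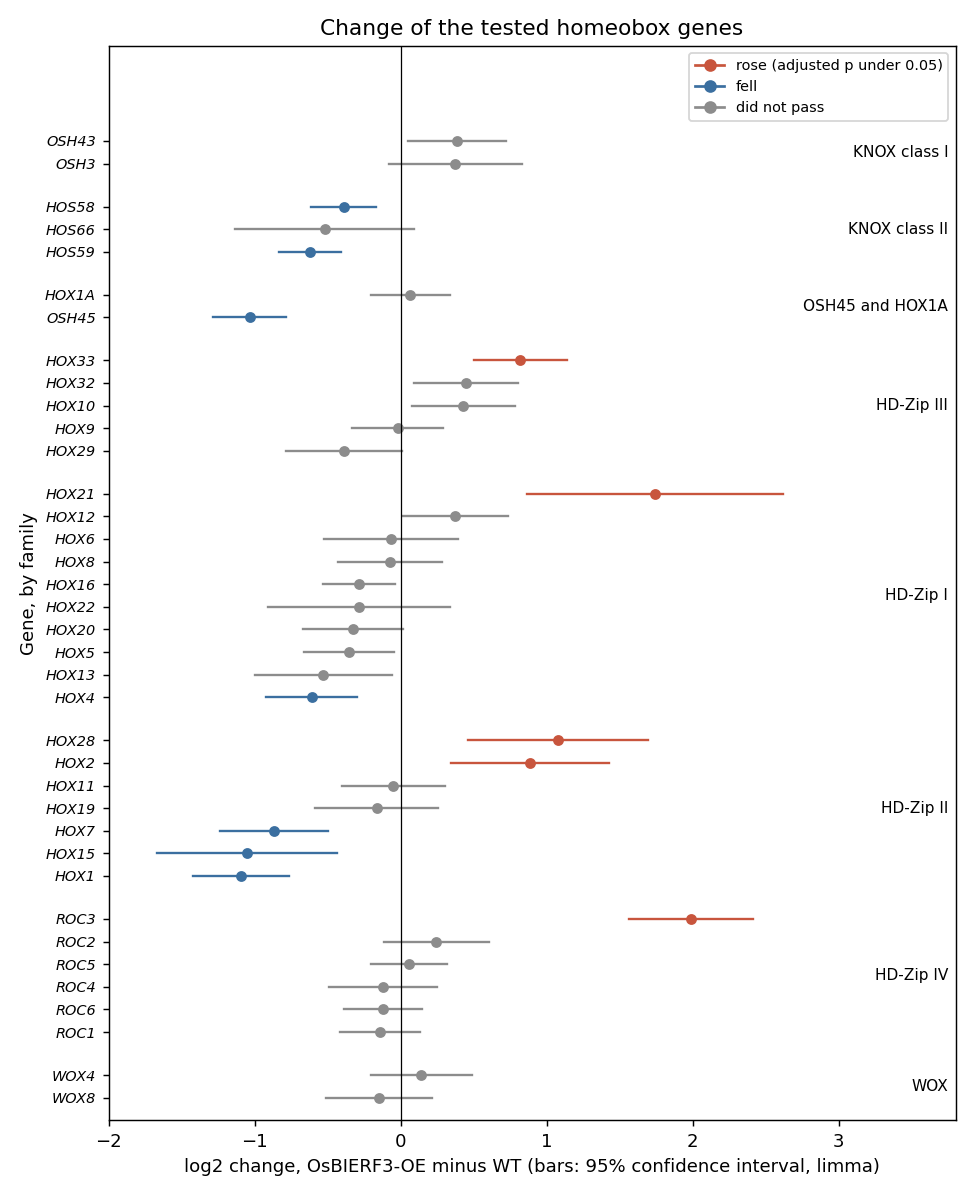
Log2 change of each of the 37 tested homeobox genes (x axis, OsBIERF3-OE minus WT), grouped by family (y axis), where points are limma estimates from 2 arrays per genotype and bars are 95% confidence intervals. Red genes rose, blue genes fell and grey genes did not pass; all 3 class II KNOX genes lie left of 0, and called class II HD-Zip genes lie on both sides.

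Fewer homeobox genes passed when 1 array was left out. Such a fit has 1 array in a genotype, and over all probe sets it also called fewer, both higher and lower. A lost call therefore does not by itself show that it rests on 1 array. Of the 5 rises and 7 falls, the fit kept 5 and 3 without WT replicate 1, 2 and 2 without WT replicate 2, 3 and 5 without OsBIERF3-OE replicate 1, and 1 and 3 without OsBIERF3-OE replicate 2. With the arrays scaled on 27 spiked hybridization control probe sets, which moves the median log2 change of all genes from -0.04 to 0.24, 11 homeobox genes rose and 4 fell. Over all probe sets, 7729 were then higher and 1615 lower, against 4273 and 4058 without this scaling. Every called gene kept its direction under all alternatives run for it. Leaving out an array could not turn a sign, because the genotypes of the called genes did not overlap. OSH45 and HOX1 passed under each of their 13.

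**Figure D2:**
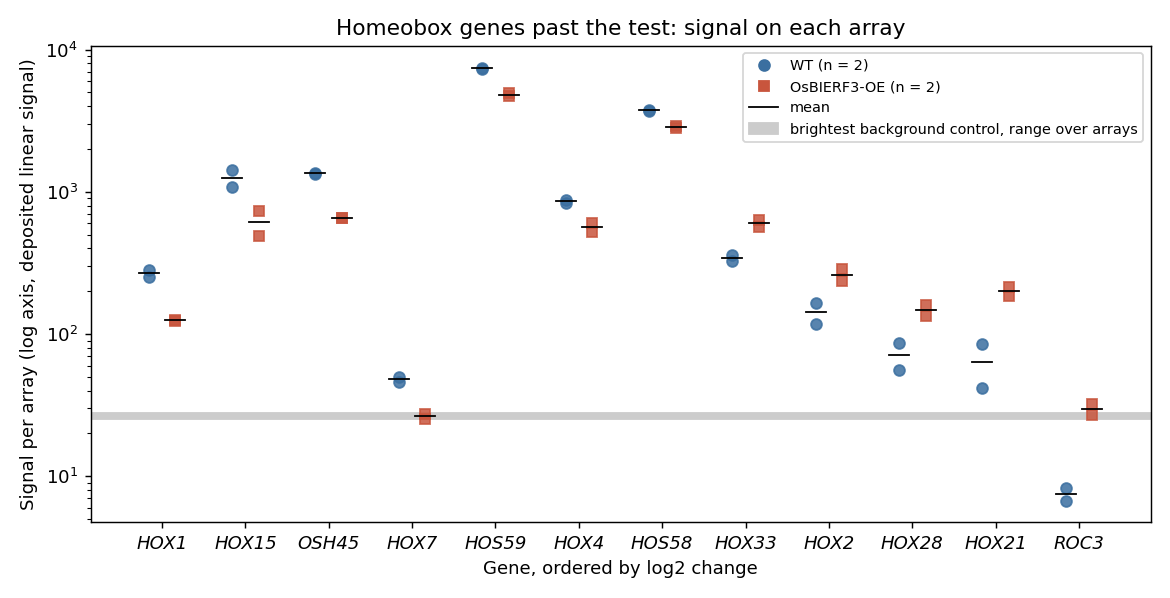
Signal on each array (y axis, log scale, deposited linear signal) for the 12 homeobox genes past the test (x axis, ordered by log2 change), with circles for WT, squares for OsBIERF3-OE and a line at the mean of the 2 arrays. The grey band is the background level of 25.1 to 28.0; the genotypes are apart for all 12 genes, and ROC3 in WT lies under the band.

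The 5 measured class I KNOX genes were not above background in either genotype. OSH10 and OSH15, also of class I, had no probe set that reads them alone. OSH1, the knotted1 counterpart that marks the shoot apical meristem, gave signals of 5.2 and 4.4 in WT and 4.4 and 4.6 in OsBIERF3-OE. OSH6 lay at 9.4 and 10.8 in WT and at 10.0 and 9.8 in OsBIERF3-OE, and OSH71 at 5.8 and 6.1 against 6.2 and 8.2. All 3 are under the filter on dim probe sets and were not tested. OSH43 was at 20.3 and 19.3 in WT and at 26.1 and 25.6 in OsBIERF3-OE, and OSH3, which lies 1 gene away from OSH1 on its chromosome, at 12.5 and 16.6 against 17.9 and 19.5. These 2 genes had higher signals on both OsBIERF3-OE arrays and did not pass (limma adjusted p = 0.0931 and 0.194; 1 of the 2 at an unadjusted p under 0.05), and no array of either was above its background level. With hybridization control scaling both passed, still at background. The highest signal of the 5 measured class I KNOX genes on any array was 26.1.

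Of the class II KNOX genes, HOS58 and HOS59 fell in OsBIERF3-OE. HOS59 (LOC4341661) gave 7331 and 7468 in WT and 4709 and 4926 in OsBIERF3-OE. Both WT arrays lay well above both OsBIERF3-OE arrays, and the mean fell from 7399 ± 96.3 to 4817 ± 154 (SD, n = 2 each), 1.54-fold (log2 change -0.62, SE 0.08, limma adjusted p = 0.00927). HOS58 (LOC4328520) gave 3727 and 3757 in WT and 2923 and 2793 in OsBIERF3-OE, again without overlap. Its fall was 1.31-fold (log2 change -0.39, SE 0.09, limma adjusted p = 0.0333). HOS66 (LOC4331449) gave 941.5 and 636.9 in WT and 464.3 and 628.3 in OsBIERF3-OE. The WT arrays differed more from each other than the nearest arrays of the genotypes did, and it did not pass (log2 change -0.52, SE 0.24, limma adjusted p = 0.182). So 2 of the 3 tested class II genes fell, beside 14.5% of all genes down, with a median log2 change of -0.52. With hybridization control scaling 1 fell and the median was -0.23. Without WT replicate 2 the count of falls was 0, and without any other single array it was 1.

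OSH45 (LOC4345191), a KNOX gene not assigned to a class here, also fell. Its signal was 1360 and 1330 in WT and 658.2 and 655.3 in OsBIERF3-OE. The arrays of each genotype were close together and far from the other genotype, and the fall was 2.05-fold (log2 change -1.03, 95% confidence interval -1.29 to -0.78, limma adjusted p = 0.00365). HOX1A (LOC4340565), also named HAZ1, joins a homeodomain to a PHD zinc finger and is no HD-Zip gene. It gave 578.7 and 556.2 in WT and 603.5 and 584.4 in OsBIERF3-OE, a log2 change of 0.07 with an interval of -0.20 to 0.34 (limma adjusted p = 0.7). HOS59 missed the threshold without WT replicate 2 (limma adjusted p = 0.0535), and HOS58 missed it whichever array was left out (0.0734 to 0.144) and without the intensity trend (0.0738). With hybridization control scaling the log2 changes were -0.33 for HOS59, still past the test, and -0.10 for HOS58 (limma adjusted p = 0.412).

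**Figure D3:**
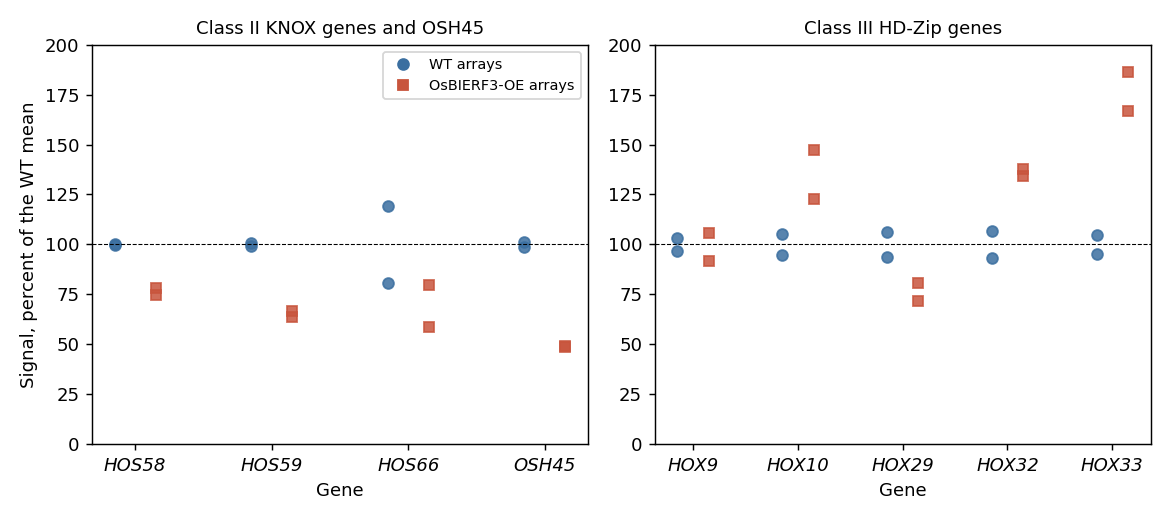
Signal on each array as a percentage of the gene's WT mean (y axis) for class II KNOX genes and OSH45 (left) and class III HD-Zip genes (right), with circles for the 2 WT arrays and squares for the 2 OsBIERF3-OE arrays. Both OsBIERF3-OE arrays are under both WT arrays for all 4 genes on the left, while on the right HOX33, HOX32 and HOX10 are above, HOX29 is below and HOX9 overlaps.

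Among class III HD-Zip genes, HOX33 rose and the other 4 did not pass, beside 17.2% of all genes up. HOX33 (LOC4352777), whose knockdown is known to hasten leaf senescence in rice, gave 357.0 and 324.2 in WT and 568.1 and 635.0 in OsBIERF3-OE. Both OsBIERF3-OE arrays were higher than both WT arrays, a 1.77-fold rise (log2 change 0.82, SE 0.13, limma adjusted p = 0.0128). HOX32 (LOC4333544), which rolls leaves when overexpressed, gave 122.8 and 107.5 in WT and 158.8 and 154.6 in OsBIERF3-OE. HOX10 (LOC4331345, also OsHB1) gave 598.3 and 539.5 in WT and 698.8 and 838.5 in OsBIERF3-OE. Both were higher on the OsBIERF3-OE arrays without overlap, with log2 changes of 0.45 and 0.43 and limma adjusted p of 0.0747 and 0.0801, the smallest among genes that did not pass. HOX9 (LOC4348919, also OsHB2) gave 772.9 and 723.2 in WT and 687.5 and 790.2 in OsBIERF3-OE, so its arrays overlapped, and the interval of its log2 change was -0.33 to 0.29. HOX29 (LOC4327348, also OSHB5) went the other way, at 53.9 and 47.6 in WT and 36.4 and 41.0 in OsBIERF3-OE (log2 change -0.39, limma adjusted p = 0.134). The family's median log2 change was 0.43. HOX33 missed the threshold without WT replicate 2 (limma adjusted p = 0.0662) or OsBIERF3-OE replicate 2 (0.0556), and with hybridization control scaling HOX10 and HOX32 passed as well.

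In class I of the HD-Zip genes, 1 of the 10 tested rose, 1 fell and 8 did not pass, beside 17.2% of all genes up and 14.5% down. Their median log2 change was -0.28, which became 0.0032 with hybridization control scaling. HOX4 (LOC4347333), a gene known to restrain gibberellin responses, gave 872.4 and 836.6 in WT and 604.6 and 518.2 in OsBIERF3-OE. The genotypes did not overlap, and the fall was 1.53-fold (log2 change -0.61, SE 0.12, limma adjusted p = 0.0255). HOX21 (LOC4331774) gave 84.9 and 41.7 in WT and 184.9 and 214.3 in OsBIERF3-OE. The WT arrays were unequal but both lay under the OsBIERF3-OE arrays, a 3.34-fold rise (log2 change 1.74, SE 0.35, limma adjusted p = 0.0241). Its probe set is of a type (_x_at) that can share probes with other transcripts, so its source is uncertain.

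The 8 class I HD-Zip genes that did not pass had log2 changes between -0.53 and 0.38. HOX13 (LOC4331890) gave 423.1 and 343.6 in WT and 232.5 and 300.5 in OsBIERF3-OE (log2 change -0.53, limma adjusted p = 0.0976). HOX16 (LOC4330610) gave 5415 and 4826 in WT and 4189 and 4218 in OsBIERF3-OE (log2 change -0.28, limma adjusted p = 0.0947). Both were lower on both OsBIERF3-OE arrays, as were HOX5 and HOX20, but with hybridization control scaling the log2 change of HOX16 was 0.0046. HOX20 was read by 2 probe sets that disagreed on the call: the brighter one, again of the _x_at type, had a log2 change of -0.33 (limma adjusted p = 0.141). The other gave 187.2 and 199.6 in WT and 110.2 and 114.7 in OsBIERF3-OE, a log2 change of -0.78 (limma adjusted p = 0.0155). Signals of HOX6 and HOX22, which are known to respond to dehydration, overlapped between the genotypes, as did those of HOX8. No HOX8 array was above background. HOX12, known for its part in panicle exsertion, was under the background level on all arrays and had a log2 change of 0.38 (limma adjusted p = 0.119). HOX4 missed the threshold without WT replicate 1 (limma adjusted p = 0.105), WT replicate 2 (0.0972) or OsBIERF3-OE replicate 2 (0.0951) and with hybridization control scaling (log2 change -0.32, limma adjusted p = 0.11). HOX21 missed it without OsBIERF3-OE replicate 2 (limma adjusted p = 0.0795).

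Class II HD-Zip genes moved in both directions: 3 of 7 tested fell, 2 rose and 2 did not pass. Over all genes tested, 14.5% fell and 17.2% rose. The median log2 change of the 7 was -0.16, and 0.12 with hybridization control scaling. HOX1 (LOC4349388), a repressor known from the differentiation of provascular cells and, with HOX28, from the control of tiller angle, gave 280.5 and 253.1 in WT and 123.7 and 125.7 in OsBIERF3-OE. The WT arrays were more than 2-fold above the OsBIERF3-OE arrays, and the fall was 2.14-fold (log2 change -1.10, 95% confidence interval -1.42 to -0.77, limma adjusted p = 0.00669). HOX15 (LOC4347946) gave 1078 and 1424 in WT and 735.6 and 486.0 in OsBIERF3-OE. The arrays within each genotype were uneven but did not cross, and the fall was 2.07-fold (log2 change -1.05, SE 0.24, limma adjusted p = 0.0347). Its probe set is of a type (_s_at) that can read several transcripts. HOX7 (LOC4329705) gave 50.1 and 46.1 in WT and 25.2 and 27.6 in OsBIERF3-OE. The OsBIERF3-OE signals were near background, above it on 1 of the 2 arrays, and the fall was 1.82-fold (log2 change -0.87, SE 0.15, limma adjusted p = 0.0162). This probe set is of the _x_at type, which can share probes with other transcripts. A second, dimmer probe set of HOX7 gave 29.6 and 31.9 in WT, just above background, and 16.8 and 16.3 in OsBIERF3-OE, under it.

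The 2 class II genes that rose, HOX2 and HOX28, are direct neighbours on their chromosome in the RefSeq gene order, with 0 genes between them. HOX2 (LOC4340070) gave 166.3 and 118.0 in WT and 234.5 and 286.0 in OsBIERF3-OE. The lowest OsBIERF3-OE array exceeded the highest WT array, a 1.85-fold rise (log2 change 0.89, SE 0.21, limma adjusted p = 0.0384). HOX28 (LOC4340069) gave 86.3 and 56.2 in WT and 134.7 and 159.8 in OsBIERF3-OE. It showed the same order of arrays, with WT replicate 2 lowest and OsBIERF3-OE replicate 2 highest, and rose 2.11-fold (log2 change 1.08, SE 0.24, limma adjusted p = 0.0329). Whether the pair shares probes was not tested. HOX19 (37.1 and 42.9 against 32.8 and 38.6) and HOX11 overlapped between the genotypes, and no HOX11 array was above background. HOX17 was under the filter.

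Apart from HOX1, each call in class II of the HD-Zip genes was lost in some or all fits with an array left out. Such fits leave 1 array in a genotype and call fewer probe sets in all. Lost calls therefore do not by themselves show dependence on single arrays. HOX7 missed the threshold whichever array was left out, with log2 changes of -0.93 to -0.80. HOX15 missed it without WT replicate 1 (limma adjusted p = 0.0567), WT replicate 2 (0.136) or OsBIERF3-OE replicate 2 (0.0844) and with hybridization control scaling (0.0585). HOX2 and HOX28 missed it without WT replicate 2 (limma adjusted p = 0.13 and 0.0946), OsBIERF3-OE replicate 1 (0.0554 and 0.0567) or OsBIERF3-OE replicate 2 (0.135 and 0.114).

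**Figure D4:**
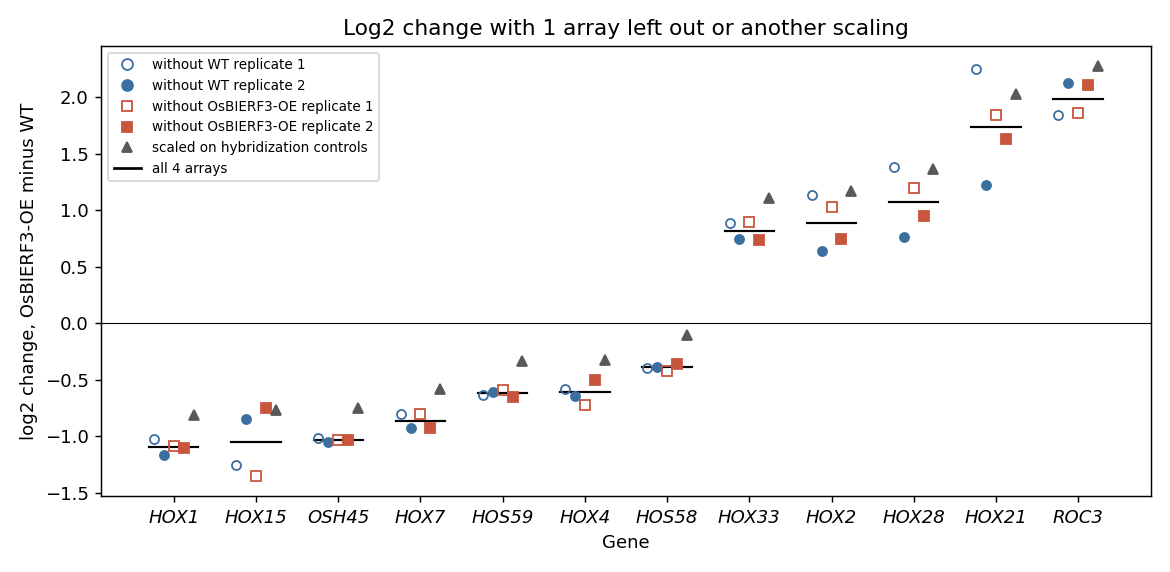
Log2 change (y axis, OsBIERF3-OE minus WT) of the 12 called homeobox genes (x axis) with all 4 arrays (line), with 1 array left out (circles and squares) and after scaling to the hybridization controls (triangles). No symbol crosses 0, but leaving out an array cannot turn the sign of genes whose genotypes do not overlap. HOX21, HOX15 and HOX28 move most between left-out arrays.

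Of the 6 tested class IV genes, the epidermal ROC genes, ROC3 rose and 5 did not pass, beside 17.2% of all genes up. ROC3 (LOC4349488) gave 6.7 and 8.2 in WT and 32.2 and 27.1 in OsBIERF3-OE. Both WT arrays were under background and both OsBIERF3-OE arrays just above it, so the rise was at least 1.16-fold (limma adjusted p = 0.00269). This bound is the mean log2 signal of OsBIERF3-OE against that of WT with each WT array raised to its background level. With all dim signals raised in this way, the gene did not pass (log2 change 0.21, limma adjusted p = 0.15). It passed with 16 added to all signals, at a log2 change of 0.96. ROC5 (LOC4330297), which controls bulliform cells and leaf rolling, gave 2236 and 2028 in WT and 2167 and 2267 in OsBIERF3-OE. Its genotypes overlapped, with an interval of -0.20 to 0.32 on the log2 change. ROC2 (LOC4337074) gave 347.8 and 394.4 in WT and 475.2 and 405.1 in OsBIERF3-OE (log2 change 0.24, limma adjusted p = 0.269). ROC1, ROC4 and ROC6 had log2 changes of -0.14, -0.12 and -0.12, and the family's median turned from -0.03 to 0.26 with hybridization control scaling. ROC7 and ROC8 were under the filter.

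Of the 7 measured WOX genes 5 were under the filter, and of the 2 tested 0 passed limma's adjusted p, or an unadjusted p under 0.05. Over all genes tested, 31.8% passed the adjusted p. WOX8 (LOC4327441, also OsWOX13) gave 129.8 and 113.1 in WT and 110.8 and 108.2 in OsBIERF3-OE. The closest arrays of the genotypes nearly touched. The interval of its log2 change was -0.51 to 0.22 (limma adjusted p = 0.51), and the change was 0.14 with hybridization control scaling. WOX4, known from leaf and vascular development, was under background, with a log2 change of 0.14. WOX9, the quiescent centre gene QHB, gave 7.4 and 10.4 in WT and 14.8 and 15.5 in OsBIERF3-OE. It passed when no probe set was filtered (log2 change 0.79, limma adjusted p = 0.0481), yet no array of it was above background. WOX6, WOX7, WOX10 and WOX11, the last known from crown root growth, differed by less than 0.2 in log2 change in that fit. In all, 13 measured homeobox genes were under the filter, with signals of 4.41 to 15.5.

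Genes that act with homeobox genes were taken from lists of names. In the list of leaf polarity genes 7 of 18 tested rose (38.9%), 0 fell and 11 did not pass, beside 17.2% of all genes up and 14.5% down. Their log2 changes had a median of 0.45. With hybridization control scaling 10 rose and the median was 0.73, against 0.24 for all genes. The largest fitted change was in a YABBY gene listed as YAB5 and OsYAB3 (LOC4336518), which gave 9.3 and 9.2 in WT and 168.6 and 81.9 in OsBIERF3-OE, at least 4.61-fold higher (limma adjusted p = 0.00359). AGO1D (LOC4342138), an argonaute gene of the microRNA pathway, gave 575.1 and 549.6 in WT and 995.6 and 1061 in OsBIERF3-OE (log2 change 0.87, limma adjusted p = 0.00719). YAB4 passed the test (limma adjusted p = 0.00646) at 7.6 and 6.6 in WT and 26.3 and 19.1 in OsBIERF3-OE, with no array above background, and did not pass with dim signals raised (0.244). The list had 3 rises without WT replicate 2 or OsBIERF3-OE replicate 2, and 4 without WT replicate 1.

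Of 11 tested genes of cytokinin activation, gibberellin synthesis and KNOX repression, 2 fell, 1 rose and 8 did not pass. This share of 27.3% is near the 31.8% of all genes called. The median log2 change was -0.40, and -0.12 with hybridization control scaling. LOG (LOC4324445), a cytokinin-activating enzyme gene needed for meristem upkeep, fell from 1700 and 1869 in WT to 945.3 and 657.0 in OsBIERF3-OE (log2 change -1.18, limma adjusted p = 0.0149), and by the mean of its probe sets the log2 change was -0.67. Its relative LOGL5 fell from 409.3 and 385.7 to 175.7 and 231.9 (log2 change -0.98, limma adjusted p = 0.0175). RS2 (LOC4352588), whose maize counterpart keeps KNOX genes silent in leaves, rose from 921.2 and 832.1 in WT to 1209 and 1429 in OsBIERF3-OE (log2 change 0.59, limma adjusted p = 0.0314). As the mean of its probe sets RS2 had a log2 change of 0.25 and did not pass (limma adjusted p = 0.229). RS2 also missed the threshold without WT replicate 1 (limma adjusted p = 0.0785), WT replicate 2 (0.139) or OsBIERF3-OE replicate 2 (0.116). LOG missed it without WT replicate 2 (limma adjusted p = 0.0683), and LOGL5 without WT replicate 1 (0.0708) or WT replicate 2 (0.0676).

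Of 6 tested genes of the epidermis and stomata list, 3 rose and 3 did not pass, where 17.2% of all genes rose. The median log2 change was 0.60, and with hybridization control scaling 4 rose and the median was 0.88. KCS20, a gene of the fatty acid elongation that feeds cuticular wax, gave 12.4 and 14.0 in WT and 292.2 and 300.8 in OsBIERF3-OE, at least 11.6-fold higher (limma adjusted p = 0.000195). SHR1, a GRAS transcription factor gene, gave 13.5 and 11.8 in WT and 41.2 and 40.9 in OsBIERF3-OE, at least 1.61-fold higher (limma adjusted p = 0.00268). CR4, a receptor kinase gene of epidermal identity, rose from 379.4 and 300.6 to 671.4 and 695.5 (log2 change 1.02, limma adjusted p = 0.0113). Of 2 tested zinc finger homeodomain genes, ZHD10 fell and ZHD1 did not pass, beside 14.5% of all genes down. ZHD10 gave 185.0 and 241.2 in WT and 119.4 and 76.8 in OsBIERF3-OE (log2 change -1.14, limma adjusted p = 0.0338). ZHD10 missed the threshold with hybridization control scaling (limma adjusted p = 0.0543) and without WT replicate 1 (limma adjusted p = 0.0621), WT replicate 2 (0.135) or OsBIERF3-OE replicate 2 (0.0856). Of 3 tested genes of the WOX circuit, among them FON1 and NAL1, 0 passed limma's test, beside 31.8% of all genes tested. Among the 3, FON1 alone had an unadjusted limma p under 0.05 (log2 change -0.38). Their median log2 change was -0.24, and 0.05 with hybridization control scaling.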

How the data were processed

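Each array has a deposited column of linear signal intensity, 1 value for each probe set. The submitters' processing notes name MAS5 without a version or a role, and how the authors normalized the arrays or corrected background is not given in the sources used here. Deposited signals under 1 were set to 1 before log2 was taken. After 123 control probe sets were left out, the upper 60% by mean log2 signal, 34355 in number, entered a limma fit (version 3.58.1, R 4.3.3) with genotype as the only term, through lmFit and eBayes (trend=TRUE). Degrees of freedom were 2 residual and 5.28 in total, and p-values were adjusted by Benjamini-Hochberg over all of them. The fit was also run on simulated data with independent noise and few changed probe sets. That run does not show how the fit performs on these arrays.

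Probe sets were linked to genes by the platform's annotation table, where 22436 probe sets have 1 gene and 95 have several. All 17905 genes matched the RefSeq table of assembly GCF_034140825.1 by gene ID, and gene names and synonyms came from that RefSeq table. Symbols matched any case with an optional Os prefix; haemoglobin genes that share HB names were dropped from a companion list. Files name no build, so RefSeq coordinates served only to order genes along a chromosome. Of the root and inflorescence marker lists, 0 of 1 and 0 of 4 tested genes passed limma's test, beside 31.8% of all genes tested. At an unadjusted limma p under 0.05 there were 1 and 2. Without OsBIERF3-OE replicate 1, the root gene and 2 of the inflorescence genes fell, and without WT replicate 2, 1 of the inflorescence genes did. Members and lists were chosen with earlier results of these data known. Named genes were all members past the test, those of each family with the highest signal or largest change among the rest, and up to 3 per companion list. Further members were picked for naming with their values known. Alternatives are listed in the closing section.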

Additional observations from a re-analysis of the deposited data

How the results depend on the processing

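Deviations of same-numbered arrays from their group means were negatively correlated (r = -0.25 over 34355 probe sets), so the replicate numbers were not taken as pairs. With the replicate number as a block, 2 homeobox genes rose and 4 fell, and 2665 probe sets were higher and 1875 lower, against 4273 and 4058 without it. With the numbers crossed, an alternative chosen after seeing the data, 6 homeobox genes rose and 11 fell, and 5790 probe sets were higher and 6549 lower. Scaling on hybridization controls gave 11 and 4 homeobox genes, 7729 and 1615 probe sets and a homeobox median of 0.17. It adds 0.29 to every log2 change, and 11 of the 37 tested homeobox genes, 0 of them called, then had the opposite sign: HOX6, HOX8, HOX9 (0.27), HOX11, HOX16 (0.0046), HOX19 (0.12), HOX22, ROC1, ROC4, ROC6 and WOX8 (0.14). HOX9 also turned under quantile normalization (0.012). Leaving out 1 array at a time gave 1 to 5 homeobox rises, 2 to 5 falls, 2111 to 2903 probe sets higher and 1159 to 3268 lower. The log2 change of HOX9 then ranged from -0.12 to 0.080 and that of ROC5 from -0.013 to 0.13. The cause of these shifts was not tested. No filter, a stricter filter keeping the upper 40%, quantile normalization, 16 added to signals, raised dim signals, no intensity trend and the mean of all probe sets gave 4 to 6 rises and 6 to 8 falls. Of 154 alternative values of the 12 called genes, 119 passed and 0 changed direction. In several of these alternatives the direction could not change. The genotypes of the called genes did not overlap, and some alternatives leave the log2 change as it is. Signals near the background of 25.1 to 28.0 limit ROC3, HOX7 and the 19 genes above it on no array.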

Other observations

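HOX1 and HOX28, known in rice to reduce HSFA2D expression and to shape tiller angle, moved in opposite directions here. HSFA2D (LOC4331707), looked up after these values were seen, gave 2244 and 2431 in WT and 1856 and 1658 in OsBIERF3-OE, a log2 change of -0.41 (limma adjusted p = 0.049). The gene table lists ARD names, those of an acireductone dioxygenase, under the same gene, so which transcript this probe set reads is uncertain.

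The 5 genes on each side of the HOX28 and HOX2 pair were also looked up afterwards. The nearest gene on the HOX28 side (LOC4340068) was under background on all arrays, at 8.86 and 9.46 in WT and 15.4 and 18.7 in OsBIERF3-OE (log2 change 0.89, limma adjusted p = 0.0162). The nearest on the HOX2 side (LOC4340071) gave 1110 and 1074 in WT and 1051 and 1063 in OsBIERF3-OE (log2 change -0.05, limma adjusted p = 0.77). Of the others with a probe set, LOC4340065, the fourth gene on the HOX28 side, passed the test. LOC4340065 gave 899.0 and 868.6 in WT and 1253 and 1306 in OsBIERF3-OE (log2 change 0.53, limma adjusted p = 0.0207). On the HOX28 side LOC4340066 (log2 change 0.36) and LOC4340064 (-0.55) did not pass. Nor did LOC4340074 (-0.16), LOC4340075 (-0.61) and LOC4340077 (0.32) on the HOX2 side. Over all genes tested, 31.8% passed.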
